A study of Homo sapiens with 24 samples.

Results

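A set of 7 genes of lipid hydrolysis was followed in the human prostate cancer line LREX': the lipases LIPG, PNLIP, LIPA, PNPLA2, LIPE and LIPH, and the phospholipase NAPEPLD. They are 7 of the 20046 genes with a single symbol on the array, and all 9 of their annotated probes among 47323 were taken, 2 each for LIPG and NAPEPLD and 1 for each other gene. LIPG, PNLIP and NAPEPLD were chosen by their measured response to the treatments on these same arrays, so their changes are given with standard errors and intervals as a description, without p-values. LIPA, PNPLA2, LIPE and LIPH were added for their function, with earlier results of these data known.

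LREX' cells descend from an enzalutamide-resistant xenograft of LNCaP cells that overexpress the androgen receptor, and they hold a high level of the glucocorticoid receptor. All cultures grew in charcoal-stripped, steroid-depleted medium and were treated for 8 h. The 8 groups received vehicle (DMSO), the androgen dihydrotestosterone (DHT) at 1 nM, the synthetic glucocorticoid dexamethasone (Dex) at 10 nM, Dex at 100 nM, the androgen receptor antagonist enzalutamide at 10 µM, or enzalutamide together with DHT at 1 nM, with Dex at 10 nM or with Dex at 100 nM; the labels give no enzalutamide dose for the combinations. Each group held 3 biological replicates, 1 array each, so the values describe 1 cell line at 1 time.

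The 24 arrays were of like depth, with median signals of 59.4 to 69.5, 19463 to 21017 detected probes and, per probe, 18 to 21 beads at the median. Replicate arrays correlated at 0.992 to 0.995 across genes. The 6 luminal epithelial markers on the array (HOXB13, FOLH1, KRT8, KRT18, EPCAM and CDH1) were detected on all 24 arrays, as was the glucocorticoid receptor gene NR3C1. On the log2 normalised scale, group means of its brightest probe ran from 5.305 (Dex 100 nM) to 6.648 (enzalutamide with DHT). It read 6.607 in vehicle. The lowest detected level was 4.97 to 5.11 on the arrays. FKBP5, a textbook target of both receptors, rose 2.73-fold with DHT and 4.24-fold with Dex 100 nM.

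Lipases cut fatty acids from glycerolipids or cholesteryl esters. Some are secreted and act on lipoproteins or dietary fat, as endothelial lipase (LIPG) and pancreatic lipase (PNLIP) do. Others work inside the cell on lipid droplets (PNPLA2, LIPE) or in lysosomes (LIPA). NAPEPLD releases N-acylethanolamines, among them anandamide, from membrane phospholipids and so belongs to endocannabinoid metabolism. In prostate cancer cells, androgen is known for control of fatty acid and sterol supply.

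LIPG and NAPEPLD moved together across the 8 groups and PNLIP did not move with them. As a description, the 250 bases before an annotated start of each are shown (RefSeq, GRCh38.p14, on the strand of the gene, 5′ to 3′). Capitals mark TATAAA, known from many promoters as the TATA box, which was added to the search after the sequences had been seen.
LIPG, chr18:49561807-49562056, plus strand: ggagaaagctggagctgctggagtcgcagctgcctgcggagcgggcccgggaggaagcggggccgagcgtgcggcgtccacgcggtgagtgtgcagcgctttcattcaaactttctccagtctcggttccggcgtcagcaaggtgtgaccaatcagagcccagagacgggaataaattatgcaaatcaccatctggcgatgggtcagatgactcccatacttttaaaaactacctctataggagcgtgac
NAPEPLD, chr7:103149100-103149349, minus strand: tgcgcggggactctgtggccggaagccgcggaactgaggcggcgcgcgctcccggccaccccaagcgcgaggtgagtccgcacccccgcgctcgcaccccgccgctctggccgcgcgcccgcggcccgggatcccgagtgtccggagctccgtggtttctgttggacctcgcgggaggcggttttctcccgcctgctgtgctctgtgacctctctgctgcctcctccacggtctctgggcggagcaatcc
PNLIP, chr10:116545681-116545930, plus strand: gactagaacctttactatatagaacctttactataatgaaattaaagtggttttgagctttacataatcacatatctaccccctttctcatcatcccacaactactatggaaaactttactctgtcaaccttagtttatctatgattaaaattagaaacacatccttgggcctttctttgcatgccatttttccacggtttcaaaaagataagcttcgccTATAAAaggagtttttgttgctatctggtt
The windows searched ran from 250 bases before to 50 after each start, and all 7 genes had at least 1 of the 12. TATAAA began 30 bases before the start of PNLIP and was not in the LIPG window or in any of the 3 NAPEPLD windows. Of the other members' windows the one of LIPH held it, and 7.33% of all 35116 windows held it on the strand of the gene. The half-site bound by both androgen and glucocorticoid receptors (AGAACA, which reads as TGTTCT from the other strand and was searched on both strands) was in none of the windows of LIPG, PNLIP and NAPEPLD. It was in 1 of 12 windows over the 7 genes, that of one LIPA start, beside 14.8% of all windows. The full palindrome, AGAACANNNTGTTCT, was in none of the 12 and in 0.00285% of all windows. GC content was 58.7% in the LIPG window and 38.0% in the PNLIP window. It was 71.0% in the NAPEPLD window shown and 71.3% and 37.3% in the other NAPEPLD windows, so it did not set NAPEPLD apart from PNLIP. The full palindrome is so rare over all windows that its absence here is uninformative. Bases farther from the starts were not searched. Any link between these sequences and the responses was not tested.

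LIPG, which cleaves phospholipids of high-density lipoproteins, had its highest level in vehicle and its lowest with DHT. The log2 normalised level of its brighter probe was 9.79, 9.75 and 9.78 on the vehicle arrays and 8.33, 8.23 and 8.12 on the DHT arrays. All DHT arrays lay below every array of the other 7 groups. DHT lowered it 2.93-fold (log2 change −1.55 ± 0.07 SE, 95% interval −1.70 to −1.40, n = 3 arrays per group). In bulk RNA, fewer cells expressing a gene and less RNA per cell cannot be told apart.
With Dex 10 nM the arrays read 9.60, 9.53 and 9.61, and with Dex 100 nM 9.42, 9.14 and 9.30. On this probe both sets lay below all vehicle arrays and above all DHT arrays, and they did not overlap each other. The log2 change from vehicle was −0.20 ± 0.07 at 10 nM and −0.49 ± 0.07 at 100 nM, which is 12.7% and 31.5% of the DHT change on that scale, at doses that differ from that of DHT.
Enzalutamide alone gave 9.47, 9.45 and 9.57, below all vehicle arrays, a log2 change of −0.28 ± 0.07 (interval −0.43 to −0.13). With enzalutamide and DHT together the arrays read 9.40, 9.50 and 9.49. These arrays overlapped those of enzalutamide alone and lay above all arrays of DHT alone, 2.35-fold higher (log2 change 1.23 ± 0.07).
On top of Dex, enzalutamide did not raise LIPG. The arrays read 9.30, 9.39 and 9.45 with enzalutamide and Dex 10 nM, all below Dex 10 nM alone (log2 change −0.20 ± 0.07). They read 9.20, 9.07 and 9.14 with enzalutamide and Dex 100 nM, which overlapped Dex 100 nM alone (log2 change −0.15 ± 0.07). Against enzalutamide alone, the log2 change was −0.04 ± 0.07 with added DHT, −0.12 ± 0.07 with Dex 10 nM and −0.36 ± 0.07 with Dex 100 nM.
From high to low, the group means ran vehicle, Dex 10 nM, enzalutamide, enzalutamide with DHT, enzalutamide with Dex 10 nM, Dex 100 nM, enzalutamide with Dex 100 nM and DHT. Only the first and the last step of this order separated neighbouring groups without overlap. The dimmer LIPG probe gave DHT the lowest place too, with 6.84, 6.97 and 6.99 against 8.28, 7.95 and 8.13 in vehicle (log2 change −1.19 ± 0.14). It placed the Dex 100 nM arrays, at 8.03, 7.77 and 7.70, across the vehicle range (log2 change −0.29 ± 0.14, interval −0.59 to 0.01), so the probes differ on that smaller change. The dimmer probe also let Dex 10 nM (−0.24 ± 0.14) and enzalutamide alone (−0.19 ± 0.14) overlap vehicle. On it enzalutamide with Dex 10 nM overlapped Dex 10 nM alone (−0.13 ± 0.14), and it gave −0.05 ± 0.14 for Dex 100 nM against 10 nM, with overlap. The separations of these groups on the brighter probe are therefore not shown by both. Over the 8 group means the 2 probes correlated at 0.98.

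NAPEPLD followed the same outline. Its brighter probe read 11.11, 10.99 and 11.05 in vehicle and 9.66, 9.65 and 9.67 with DHT. All DHT arrays lay below every other array, a 2.62-fold lower level (log2 change −1.39 ± 0.08, interval −1.56 to −1.22).
Dex 10 nM gave 10.50, 10.59 and 10.59, and Dex 100 nM gave 10.25, 10.44 and 10.46. Every Dex array lay between the vehicle and the DHT arrays. The log2 change was −0.49 ± 0.08 at 10 nM and −0.67 ± 0.08 at 100 nM, or 35.4% and 48.1% of the DHT change.
Enzalutamide alone, at 10.83, 10.82 and 11.04, overlapped vehicle (log2 change −0.15 ± 0.08). Enzalutamide with DHT, at 10.83, 10.84 and 10.89, overlapped enzalutamide alone. It exceeded DHT alone 2.29-fold (log2 change 1.20 ± 0.08), and all its arrays were the higher ones.
Enzalutamide with Dex 10 nM read 10.71, 10.52 and 10.79, and with Dex 100 nM 10.32, 10.44 and 10.55. Each overlapped the same Dex dose alone, with log2 changes of 0.11 ± 0.08 and 0.05 ± 0.08. Against enzalutamide alone they were lower by log2 changes of −0.23 ± 0.08 and −0.46 ± 0.08, without overlap.
The order of the means from high to low was vehicle, enzalutamide, enzalutamide with DHT, enzalutamide with Dex 10 nM, Dex 10 nM, enzalutamide with Dex 100 nM, Dex 100 nM and DHT. Neighbours overlapped except at the step below enzalutamide with DHT and at the last step down to DHT. The dimmer NAPEPLD probe kept this order of all 8 groups, with a DHT change of −1.45 and a Dex 100 nM change of −0.82 on the log2 scale. On it the step below enzalutamide with DHT overlapped, so that separation is not shown by both probes. Its change with enzalutamide alone was −0.30 (interval −0.51 to −0.08), with arrays that overlapped vehicle. The 2 probes correlated at 0.99 over the group means.

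**Figure D1:**
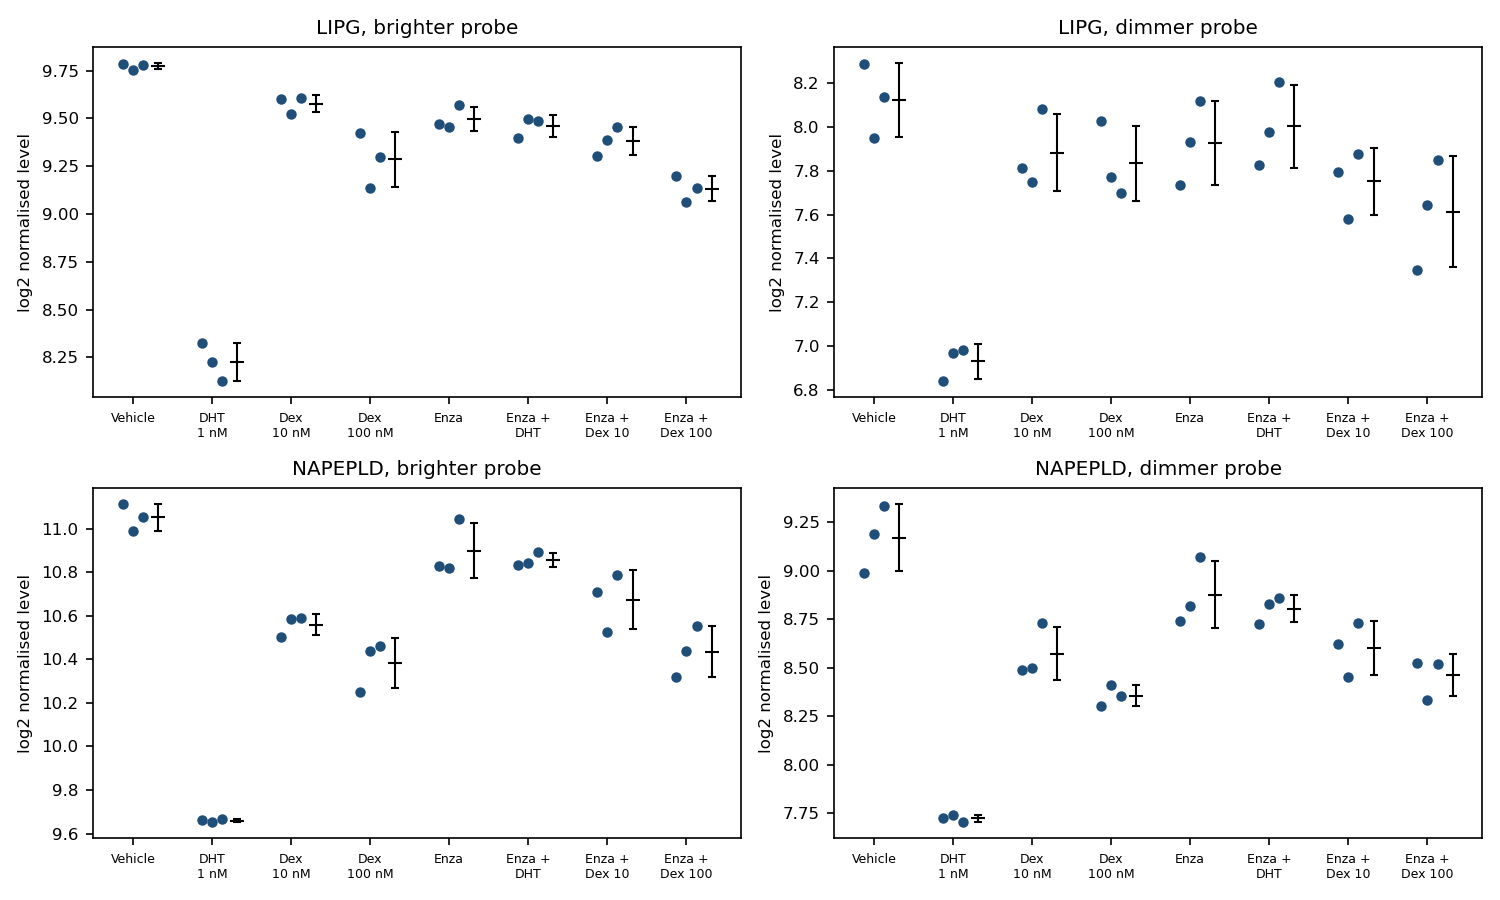
Log2 normalised level (vertical axis) of both LIPG probes and both NAPEPLD probes on each of the 24 arrays, by treatment group (Enza, enzalutamide; Dex 10 and 100 in nM); points are arrays, and the bar beside them is the mean ± SD of 3. In each panel the DHT arrays are the lowest, and the arrays with enzalutamide and DHT overlap those of enzalutamide alone, near a log2 level of 9.46 for the brighter LIPG probe. The vertical axes differ between panels and start above 0.

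PNLIP, the triacylglycerol lipase that pancreatic acinar cells secrete into the gut, was near background except with the higher Dex dose. Its signal was 46.2, 37.5 and 50.2 on the vehicle arrays and 108, 126 and 109 with Dex 100 nM. All 3 arrays of Dex 100 nM and all 3 of enzalutamide with Dex 100 nM passed a detection p of 0.05, and of the other 18 arrays 1 did, from enzalutamide with Dex 10 nM.
On the log2 normalised scale, vehicle read 4.47, 4.33 and 4.48, Dex 10 nM 4.95, 5.02 and 4.96, and Dex 100 nM 6.17, 6.50 and 6.15. The Dex 100 nM arrays stood above all vehicle, DHT and Dex 10 nM arrays. Since the probe was not detected in vehicle, the fold is given against the lowest detected level: with this background correction, Dex 100 nM was at least 2.39-fold higher (measured log2 change 1.85 ± 0.10). All such values for PNLIP hold for this correction alone, since with an offset of 50 the measured log2 change was 1.01.
Before correction and normalization, the signals of enzalutamide with Dex 100 nM were 124, 149 and 137, which overlapped those of Dex 100 nM alone. Without background correction the log2 change between these groups was 0.24. With the correction used here, enzalutamide with Dex 100 nM read 6.55, 6.78 and 6.51, above every array of Dex 100 nM alone. It exceeded Dex 100 nM alone 1.27-fold (log2 change 0.34 ± 0.10, interval 0.14 to 0.55), which was not called. With this correction it was at least 3.01-fold higher than enzalutamide alone, whose arrays read 4.49, 4.58 and 4.48 with none detected.
DHT gave 4.64, 4.58 and 4.75 and enzalutamide with DHT 4.45, 4.49 and 4.47, with no array detected in either group. Enzalutamide with Dex 10 nM gave 4.95, 5.10 and 4.75, the middle one detected, and overlapped Dex 10 nM alone. With this correction Dex 100 nM was at least 2.33-fold higher than Dex 10 nM and at least 2.38-fold higher than DHT. The measured log2 change of 1.30 from Dex 10 nM became 0.76 without background correction, and that of 1.62 from DHT became 0.91 with an offset of 50.
The order was enzalutamide with Dex 100 nM, Dex 100 nM, Dex 10 nM with enzalutamide with Dex 10 nM, DHT, and last enzalutamide, enzalutamide with DHT and vehicle. The groups below detection have no settled order among them. Other acinar genes were mostly below detection: of 7 acinar markers on the array none was detected on all 24 arrays, CPA1, CTRB1, CELA2A and PRSS1 were detected on 0, CTRC on 1, CELA3A on 2 and AMY2A on 7.

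**Figure D2:**
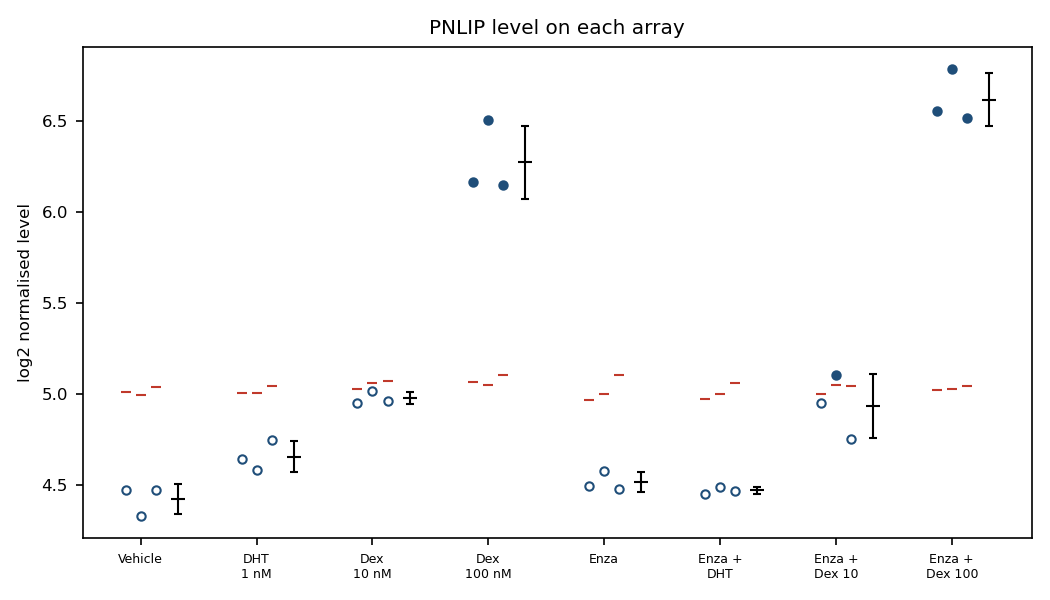
Log2 normalised level of PNLIP (vertical axis) on each of the 24 arrays by treatment group; filled points passed a detection p of 0.05, open points did not, red dashes mark the lowest detected level of each array, and the bar is the mean ± SD of 3. The 6 arrays with Dex 100 nM, with or without enzalutamide, lie between 6.15 and 6.78, above the dashes, and 1 other array is filled.

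The 5 genes that passed the detection filter were read against the share of all 12895 genes called, which means an adjusted p under 0.05 in limma. LIPG and NAPEPLD were called lower with DHT, 2 of 5, beside 4.26% of all genes. In this and the next comparisons the members had been chosen on the same response, so nothing is read from the excess. With Dex 10 nM the fit marked 2 of 5 beside 2.19%: NAPEPLD lower, and PNLIP higher, but PNLIP was detected on no array of either group and passed the filter through its Dex 100 nM arrays, so that mark is not read as a change. With Dex 100 nM 3 of 5 were called (PNLIP higher, LIPG and NAPEPLD lower) beside 5.06%. Enzalutamide alone called 0 of 5 beside 0.0155% of all genes, with 1006 genes of 12895 at an unadjusted p under 0.05.
Added to DHT, enzalutamide called LIPG and NAPEPLD higher, 2 of 5, beside 3.72%. Added to Dex 10 nM or Dex 100 nM it called 0 of 5 beside 0% and 0% of all genes, with 900 and 1050 genes at an unadjusted p under 0.05. DHT added to enzalutamide likewise called 0 of 5 beside 0%, with 428 genes at an unadjusted p under 0.05.
Dex 10 nM added to enzalutamide called 1 of 5 (PNLIP higher, with 1 of 6 arrays detected) beside 1.08%, a call that was lost in 5 of the 6 fits that left out 1 array. Dex 100 nM added to enzalutamide called 3 of 5 (PNLIP higher, LIPG and NAPEPLD lower) beside 3.40%. Dex 100 nM against Dex 10 nM called PNLIP, 1 of 5, beside 0.651%, and LIPG joined it (log2 change −0.36) without Dex 100 nM replicate 1. Dex 100 nM against DHT called LIPG, NAPEPLD and PNLIP higher, 3 of 5, beside 2.61%. With 1 array left out, the genes called fell from 283 to between 176 and 212 for Dex 10 nM, from 84 to between 45 and 81 for Dex 100 nM against Dex 10 nM, and from 337 to between 208 and 258 for Dex 100 nM against DHT. The count moved by over 1.5 times without vehicle replicate 1 or 3 or Dex 10 nM replicate 2 or 3 in the first, without Dex 100 nM replicate 2 or Dex 10 nM replicate 3 in the second, and without Dex 100 nM replicate 2 in the last. The comparisons share control arrays and are not independent of each other. Calls of LIPG, PNLIP and NAPEPLD are a description, since these genes were chosen on these arrays. PNLIP also passed the filter through its Dex 100 nM arrays, so its calls for Dex 100 nM are no support for a rise.

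**Figure D3:**
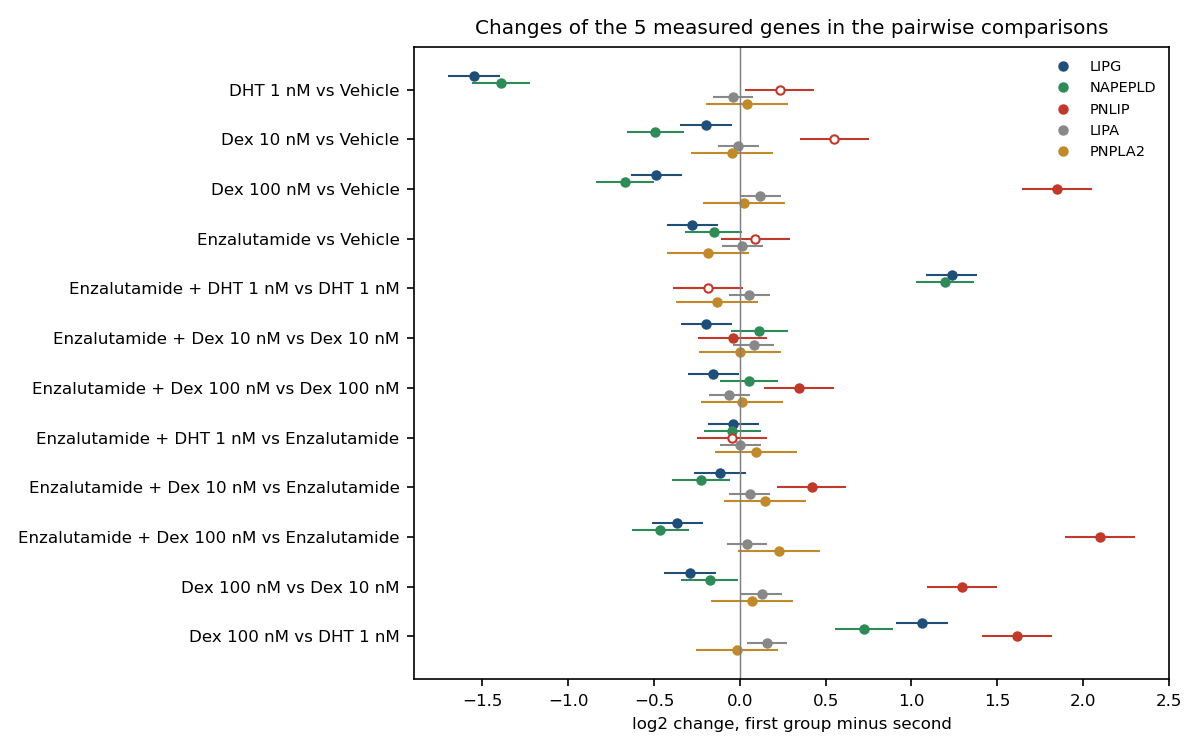
Log2 change (horizontal axis, first group minus second) of the 5 measured genes in the 12 pairwise comparisons, with 95% intervals from the fit over all arrays; open points are comparisons in which the gene was detected on no array of either group. LIPG and NAPEPLD lie left of 0 with DHT (−1.55 and −1.39) and right of 0 when enzalutamide was added to DHT (1.23 and 1.20), and PNLIP lies farthest right where Dex 100 nM was added.

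LIPA, the lysosomal acid lipase that frees cholesterol and fatty acids from endocytosed lipoproteins, was detected on all 24 arrays and called in none of the 12 comparisons. Its group means spanned log2 levels of 9.85 (DHT) to 10.00 (Dex 100 nM). Vehicle arrays read 9.85, 9.87 and 9.94 and Dex 100 nM arrays 9.92, 10.06 and 10.04. These groups overlapped, with a log2 change of 0.12 ± 0.06 (limma adjusted p = 0.303). Dex 100 nM lay above DHT without overlap by a log2 change of 0.16 ± 0.06 (adjusted p = 0.206). For DHT against vehicle the interval ran from −0.16 to 0.08.
PNPLA2, adipose triglyceride lipase, which opens the breakdown of lipid droplets, was likewise detected on all arrays and called in none of the 12. Its group means ran from 8.24 with enzalutamide to 8.47 with DHT. Enzalutamide arrays read 8.18, 8.35 and 8.19, and vehicle arrays 8.49, 8.44 and 8.35. The enzalutamide arrays lay below vehicle by a log2 change of −0.19 ± 0.11 (limma adjusted p = 0.722). Dex 100 nM arrays spread from 8.25 to 8.76, wider than the other groups, and the DHT interval ran from −0.20 to 0.28.
LIPE, hormone-sensitive lipase, and LIPH, a membrane-bound phosphatidic acid phospholipase, were detected on none of the 24 arrays and entered no test. Their group means lay between 4.42 and 4.63 for LIPE and between 4.49 and 4.76 for LIPH, beside a lowest detected level of 4.97 to 5.11 on the arrays, so no fold is given for either.

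**Figure D4:**
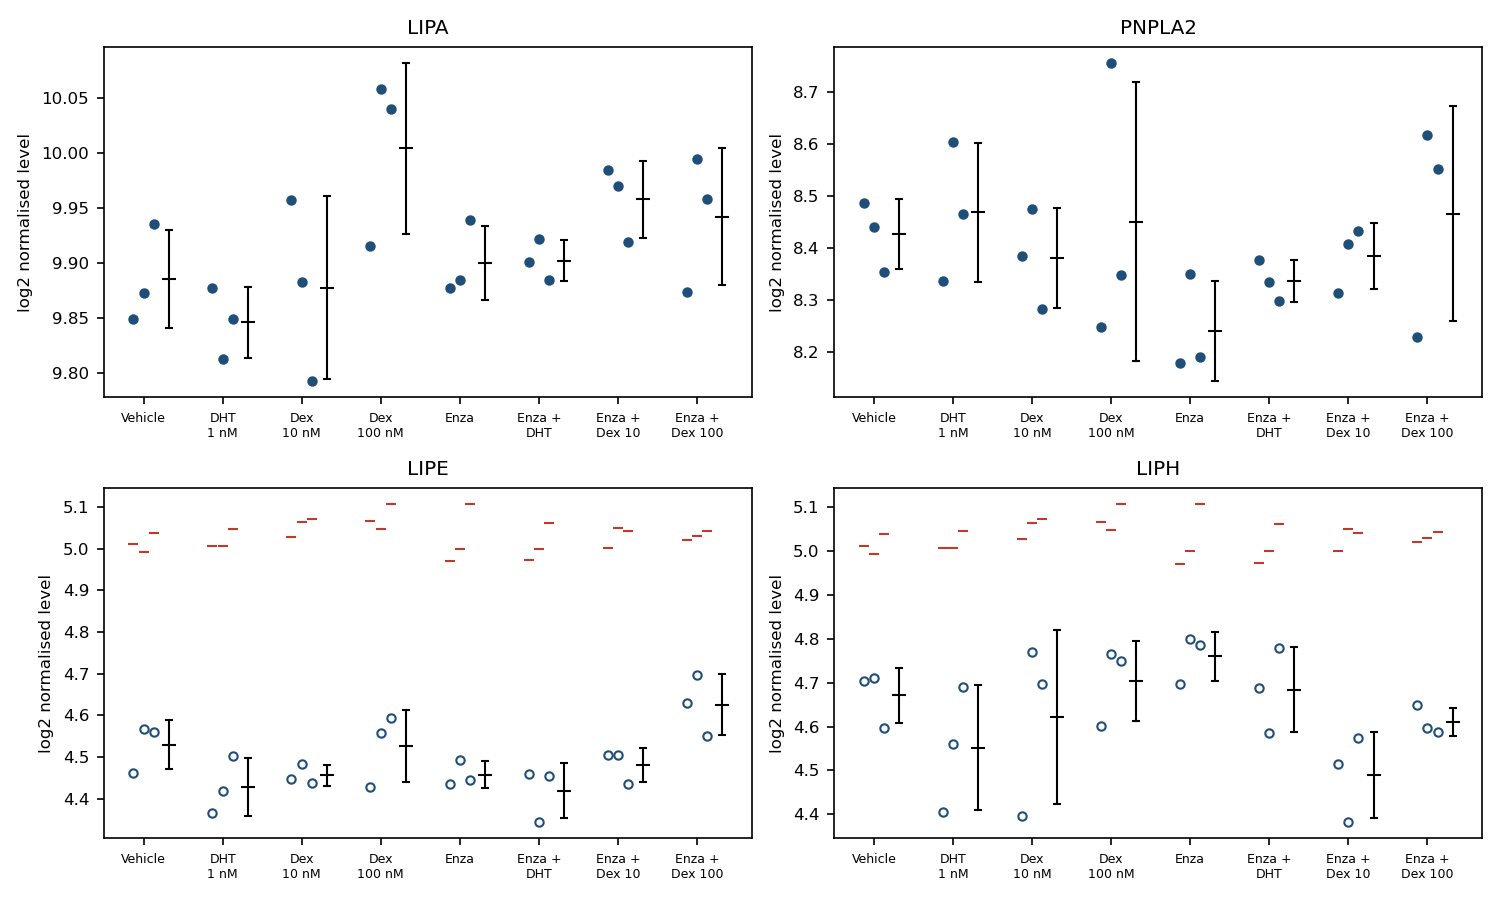
Log2 normalised level (vertical axis) of LIPA, PNPLA2, LIPE and LIPH on each of the 24 arrays by treatment group; filled points were detected, open points were not, red dashes in the lower panels mark the lowest detected level of each array, and the bar is the mean ± SD of 3. LIPA and PNPLA2 overlap between most groups, and all LIPE and LIPH points are open. The vertical axes differ and start above 0.

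Genes whose pattern over the 8 group means was most like that of a member were sought among the 166 genes with group means spanning at least 1 on the log2 scale. For LIPG these were NAPEPLD (r = 0.94), NAT8B and ABCA1 (both 0.92), MUC13 (0.87) and PCED1B (0.83). For NAPEPLD they were ABCA1 (0.97), LIPG, MUC13, BDNF and GCNT3 (all 0.94). ABCA1 is the cholesterol and phospholipid exporter that starts high-density lipoprotein formation.
The most opposite were SLC36A1, PRAG1 and GADD45G (all −0.96), ORM1 and TIPARP (both −0.95) for LIPG, and NDRG1 and C1orf116 (both −0.99), TMPRSS2 (−0.98), GRHL2 and GADD45G (both −0.97) for NAPEPLD. TMPRSS2 and NDRG1 are textbook androgen-induced genes.
PNLIP was most like ACTA2 (0.97), S100P (0.96), TSPYL2, SLC25A18 and RGS2 (all 0.95). It was most opposite to LRRN1 (−0.85), NR3C1 (−0.76), NFAT5 (−0.74), TRIM59 (−0.72) and ST8SIA4 (−0.71). LIPG and PNLIP correlated at −0.13. These are descriptions over 8 points from the same arrays and carry no test. PNLIP was detected on every array only in the groups with Dex 100 nM. Its r values thus rest on those groups against levels near background. ORM1 read 6.122 with DHT and 4.465 to 4.736 in the other groups, below the lowest detected level of 4.97 to 5.11. Its r thus rests on the DHT group.

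The wider pathway was read in 5 lists, chosen with earlier results of these data known, which limits how their p-values can be read. The lists held 86 genes on the array, of which 59 passed the detection filter. Most did not pass the test: DHT called 3 of 59 (2 higher, 1 lower), Dex 10 nM 2 (both higher) and Dex 100 nM 5 (4 higher, 1 lower), beside the 4.26%, 2.19% and 5.06% of all genes. The median log2 change of the 59 was 0.01, 0.00 and 0.03 in turn, beside −0.01 for all genes in each. With 1 array left out these counts ran from 2 to 4, from 1 (without vehicle replicate 2) to 2, and from 2 to 4. The count for Dex 100 nM was 4 without vehicle replicate 3, and 2 or 3 without any other array of the pair. Enzalutamide alone called 0 of 59 beside 0.0155%, with 7 at an unadjusted p under 0.05 in limma.
Enzalutamide on DHT called 2 of 59 (3.39%), both lower, near the 3.72% of all genes, and 1 without any 1 array other than enzalutamide with DHT replicate 3. On Dex 10 nM and on Dex 100 nM it called 0 beside 0% of all genes, with 5 and 3 genes at an unadjusted p under 0.05 in limma, and DHT on enzalutamide called 0 beside 0%, with 3. Dex on enzalutamide called 1 at 10 nM beside 1.08% and 2 at 100 nM beside 3.40%, all higher. Dex 100 nM called NPC1 alone against Dex 10 nM, beside 0.651%, and against DHT, beside 2.61%.
Of 13 other secreted or extracellular lipases on the array, 3 (LIPF, CEL and PLA1A) were measured, and lipoprotein lipase (LPL) did not pass the filter. PLA1A, a phosphatidylserine-specific phospholipase, was the one called. It read 6.55, 6.71 and 6.83 in vehicle, 7.28, 7.26 and 7.22 with DHT, and 6.56, 6.62 and 7.03 with enzalutamide and DHT. All DHT arrays were above the other 6. The log2 change was 0.56 ± 0.14 with DHT (limma adjusted p = 0.0224) and −0.52 ± 0.14 when enzalutamide was added (adjusted p = 0.0398), the direction opposite to that of LIPG. Leaving out 1 array kept the first call only without vehicle replicate 3 (adjusted p = 0.0286) and the second only without enzalutamide with DHT replicate 3 (adjusted p = 0.00871); in the other 5 cases of each it was lost.
Among 15 intracellular lipases tested, the one called was DAGLA, which makes the endocannabinoid 2-arachidonoylglycerol, in Dex 100 nM. Its arrays read 6.16, 6.68 and 6.59 in vehicle and 6.79, 7.06 and 7.11 with Dex 100 nM. The groups did not overlap (log2 change 0.51 ± 0.13, limma adjusted p = 0.0233). The call was lost without vehicle replicate 1 (0.154), Dex 100 nM replicate 2 (0.0946) or replicate 3 (0.101), these being adjusted p.
Of 17 cofactors, inhibitors and droplet proteins tested, HILPDA, an inhibitor of PNPLA2 on lipid droplets, was the one called. Vehicle read 10.37, 10.27 and 10.50, Dex 10 nM 10.62, 10.68 and 10.71, and Dex 100 nM 10.62, 10.59 and 10.63. Both Dex groups lay above vehicle. The log2 change was 0.29 ± 0.06 (limma adjusted p = 0.00835) and 0.24 ± 0.06 (adjusted p = 0.0212). The first call was lost without vehicle replicate 2 (adjusted p = 0.0587), and the second held only without vehicle replicate 3 (adjusted p = 0.00496), the other 5 adjusted p running from 0.0501 to 0.132.
Of 13 genes of N-acylethanolamine metabolism, the pathway of NAPEPLD, and of N-acylethanolamine receptors, the one called was NAAA, a lysosomal hydrolase of N-acylethanolamines. It read 8.73 to 9.01 in vehicle and 9.47, 9.26 and 9.13 with Dex 100 nM, then 9.06, 8.79 and 8.83 with enzalutamide and 9.51, 9.50 and 9.38 with enzalutamide and Dex 100 nM. Each Dex 100 nM group lay above its control. The log2 change was 0.37 ± 0.09 without enzalutamide (limma adjusted p = 0.0177) and 0.57 ± 0.09 with it (adjusted p = 0.000422), while NAPEPLD was lower in both. The first call was lost without Dex 100 nM replicate 1 (adjusted p = 0.105) or vehicle replicate 2 (adjusted p = 0.119), and the second in none of 6 leave-outs. FAAH, the main anandamide hydrolase, was not called: its log2 change was 0.21 ± 0.10 with DHT (adjusted p = 0.375) and 0.04 ± 0.10 with Dex 100 nM (adjusted p = 0.921).
Of 11 genes of lipoprotein receptors, fatty acid uptake and cholesterol transport, NPC1 and CD36 were called. NPC1, which carries cholesterol out of the lysosome after LIPA has freed it, read 9.19, 9.06 and 9.13 in vehicle, 9.63, 9.75 and 9.79 with DHT, 9.85, 9.97 and 9.80 with Dex 10 nM, and 10.31, 10.28 and 10.23 with Dex 100 nM. These 4 groups did not overlap. NPC1 rose 2.22-fold with Dex 100 nM (log2 change 1.15 ± 0.07, limma adjusted p = 1.02e-09), with log2 changes of 0.75 ± 0.07 at Dex 10 nM (adjusted p = 1.31e-06) and 0.60 ± 0.07 with DHT (adjusted p = 1.45e-05). With enzalutamide and DHT it read 9.23, 9.12 and 9.07, which overlapped vehicle (log2 change from DHT −0.58 ± 0.07, adjusted p = 2.14e-05). With enzalutamide and Dex it stayed above enzalutamide alone, by 0.59 ± 0.07 at 10 nM and 0.84 ± 0.07 at 100 nM on the log2 scale. With enzalutamide and Dex 100 nM NPC1 read 9.892, 9.969 and 10.065, all below the arrays of Dex 100 nM alone, a difference that was not called. The step from Dex 10 to 100 nM (0.40 ± 0.07, adjusted p = 0.00724) was not called without Dex 10 nM replicate 3 (adjusted p = 0.0554).
CD36, a fatty acid and lipoprotein scavenger receptor, read 6.62, 6.63 and 6.57 in vehicle, 5.83, 5.91 and 5.98 with DHT and 6.02, 6.01 and 6.16 with Dex 100 nM. Vehicle was above both. The log2 change was −0.70 ± 0.15 with DHT (limma adjusted p = 0.0061) and −0.54 ± 0.15 with Dex 100 nM (adjusted p = 0.0377). Leaving out any 1 of the 6 arrays ended the Dex 100 nM call, with adjusted p from 0.0584 to 0.123, and none ended the DHT call.

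**Figure D5:**
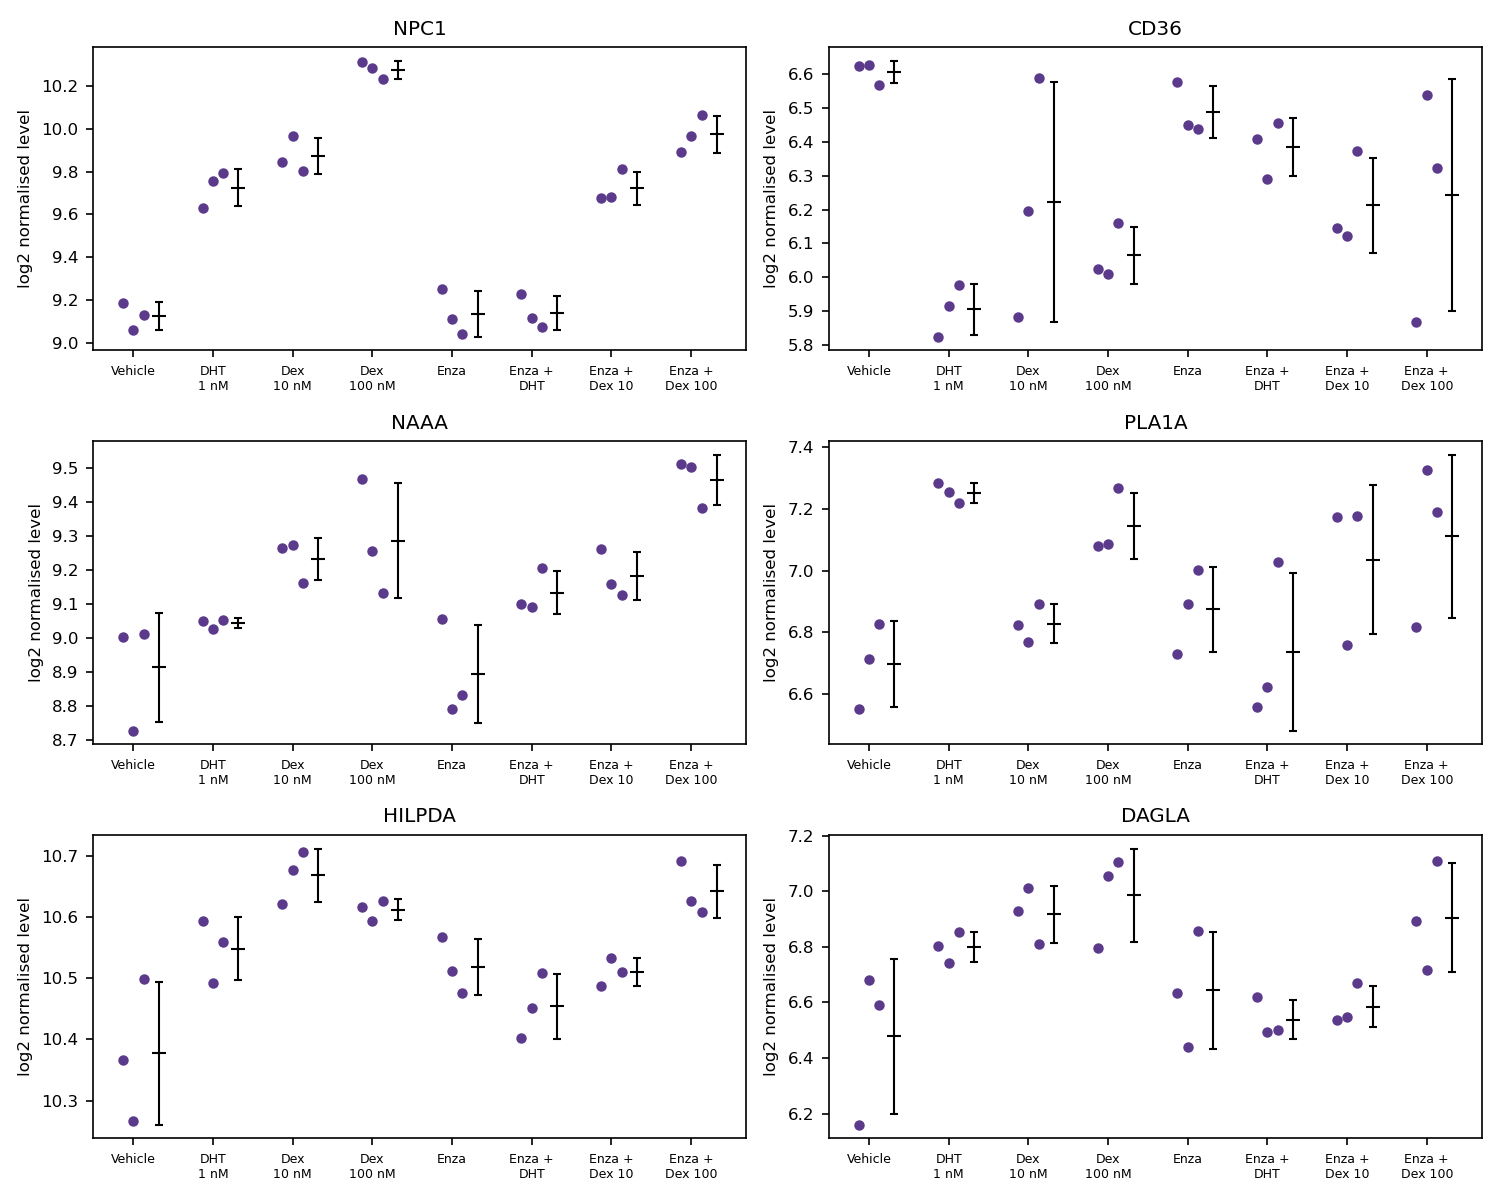
Log2 normalised level (vertical axis) of NPC1, CD36, NAAA, PLA1A, HILPDA and DAGLA, the pathway genes called in at least 1 comparison, on each of the 24 arrays by treatment group; points are arrays and the bar is the mean ± SD of 3. NPC1 is highest with Dex 100 nM (10.31, 10.28 and 10.23) and overlaps vehicle with enzalutamide and DHT; CD36 is lowest with DHT. The vertical axes differ and start above 0.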

How the data were processed

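RNA from 24 LREX' cultures, 3 per treatment, was measured on Illumina beadchip arrays. The deposited signal intensity is the mean over a probe's beads, not normalized between arrays, and the deposited detection p-value compares it with negative control beads, per the file headers. They came from GenomeStudio (version not stated), per the submitters' processing notes. Bead numbers are a deposited count per probe, and their standard error is a deposited signal error, per the file headers. A deposited table of normalized intensity values states no method and served only as an alternative.

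Groups came from the sample titles. Symbols came from the platform annotation: 30113 probes had 1 symbol, 8 several and 17202 none; 30074 matched a RefSeq table (GRCh38.p14) by Entrez identifier, which changed 0. Signals were background-corrected (normexp, parameters inferred from detection p-values, offset 16), quantile normalized and log2 transformed (limma 3.58.1, R 4.3.3). The filter kept 24607 probes whose detection p was below 0.05 on 3 or more arrays, and the probe with the highest mean stood for a gene (12895 genes). A linear model of 8 group means over all 24 arrays was fitted with lmFit and eBayes, with Benjamini-Hochberg adjustment within each of 12 comparisons and 4 differences of enzalutamide effects; an adjusted p under 0.05 is a call. A value after ± is the standard error of that log2 change. Where a gene was detected on no array of a group, its level there was set to the higher of the array's lowest detected level and its own, and the ratio is given as "at least". Levels of different probes are not compared. The number of arrays limits the precision. The fit was tested on simulated signals.

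The members and gene lists were chosen with earlier results of these data known. Named genes were all members, any listed gene called in a comparison (at most 4 per list and comparison), 5 genes each way by likeness to LIPG, PNLIP and NAPEPLD, and FKBP5, TMPRSS2 and SGK1 as checks; FAAH, LPL, LIPF and CEL were named outside this rule, after their values were seen. Alternatives were median scaling, the deposited table, no background correction, offset 50, other filters, the other probe, a label-set block, the compared arrays alone and each array left out. Protein sequences were not used here. Markers of endothelium, adipocytes, leukocytes and stroma were also read.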

Additional observations from a re-analysis of the deposited data

Results flagged for a closer look

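The enzalutamide effect on LIPG had opposite signs in different settings, but only the effect with DHT was called. It was a log2 change of −0.28 alone and 1.23 with DHT, a difference of −1.51 (alone minus with DHT), and −0.20 with Dex 10 nM, a difference of 1.43 (with DHT minus with Dex 10 nM). On the brighter probe the arrays with enzalutamide did not overlap those without it in these settings. They lay lower for enzalutamide alone and with Dex 10 nM, and higher with DHT. On the dimmer probe enzalutamide alone and with Dex 10 nM overlapped their controls (−0.19 ± 0.14 and −0.13 ± 0.14). The gene was chosen on this response, so the difference was not tested.

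The enzalutamide effect on PNLIP was a log2 change of 0.34 with Dex 100 nM and −0.19 with DHT, a difference of −0.53 (with DHT minus with Dex 100 nM). The change with enzalutamide alone was 0.09, which gives a difference of 0.28 (alone minus with DHT). All 4 groups behind that second difference were below detection, as were the DHT groups in the first. The Dex 100 nM groups, with and without enzalutamide, overlapped in signal before correction and normalization. Neither difference was tested.

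For NPC1 the enzalutamide effect with DHT differed from the effect alone by a log2 change of −0.59 ± 0.10 (limma interaction, adjusted p = 0.00194).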

How the results depend on the processing

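LIPG, NAPEPLD and, with Dex 100 nM, PNLIP kept their direction under every alternative run for the calls named in the report. The DHT change of LIPG, −1.55, was −1.44 without background correction, −1.45 with offset 50 and −1.19 for the other probe, and its rise with enzalutamide on DHT, 1.23, was 1.14 without background correction and 1.07 for the other probe. That rise was 1.08 for the other NAPEPLD probe. PNLIP, which is close to background, depended most on the correction: its Dex 100 nM change of 1.85 was 1.37 without background correction and 1.01 with offset 50, and its change with Dex 100 nM on enzalutamide, 2.10, was 2.36 in the deposited table, 1.42 without correction and 1.22 with offset 50. Its Dex 10 nM change of 0.55, with no array detected, was 0 in the deposited table, where both groups lay at the floor of 16. The 2 members called with Dex 10 nM became 1 in the deposited table and with offset 50. The 1 called with Dex 10 nM on enzalutamide became 0 with median scaling, the deposited table, offset 50, no filter or the compared arrays alone, and ranged from 0 to 1 with 1 array left out. The 3 called with Dex 100 nM on enzalutamide became 1 in a fit of the compared arrays alone, which has fewer samples, and the 1 for Dex 100 nM against Dex 10 nM ranged from 1 to 2 with 1 array left out. Without background correction DHT called 3 members in place of 2. The added one was PNLIP (log2 change 0.355), detected on no vehicle or DHT array, so that call is not read as a change.

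A fit of the compared arrays alone called fewer genes: 290 in place of 549 for DHT, 102 for 283 (Dex 10 nM), 277 for 653 (Dex 100 nM), 233 for 480 (enzalutamide on DHT), 57 for 139 and 168 for 439 (Dex 10 and 100 nM on enzalutamide), 14 for 84 (Dex 100 against 10 nM) and 120 for 337 (Dex 100 nM against DHT). It called 2 of the listed genes for Dex 100 nM in place of 5.

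Label numbers fall in 3 sets of 10, and each set held 1 array of every group. Over 84 pairs of arrays from the same set, deviations from the group means correlated at a median of 0.09, with 35 over 0.1, and over 168 pairs from different sets at −0.03, with 3 over 0.1. Same-set arrays thus deviated together more often, though not in every pair. Because deviations were taken from the group means, the values between sets are partly tied to those within sets. The labels do not say what a set is, so the fit of the report has no block. The fits with 1 array left out had none either. With the set as a replicate block, the LIPG change with DHT stayed −1.55, the numbers of members called were those of the report, and DHT called 621 genes, Dex 100 nM 777. The listed genes called became 4 for 3 (DHT), 3 for 2 (Dex 10 nM), 7 for 5 (Dex 100 nM), 3 for 2 (Dex 100 nM on enzalutamide) and 2 for 1 (Dex 100 nM against DHT). A beadchip block was not run, since the files used here name no chips. With 3 arrays per group and signals close to the negative controls, changes of PNLIP below detection, and of LIPE and LIPH, could not be measured.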

Other observations

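Markers of other cell types were detected on some arrays. Of 6 endothelial markers, VWF was detected on all 24 arrays, KDR on 1 and PECAM1, CDH5, TEK and CLDN5 on 0. Of 5 adipocyte markers, LEP was detected on all 24, CIDEC on 5 and ADIPOQ, PLIN1 and FABP4 on 0. Of 4 leukocyte markers CD14 was detected on 10 arrays, ITGAM on 2, PTPRC on 1 and CD3E on 0. Of 6 stromal markers COL1A1 was detected on all 24, LUM and PDGFRB on 11 each, DCN on 7, COL1A2 on 4 and COL3A1 on 0. Among the secreted lipases and their helpers, LPL, GPIHBP1 (its endothelial anchor) and CLPS (the cofactor of PNLIP) did not pass the detection filter. Their roles in the results were not tested.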
